A study of Mus musculus with 180 samples.

Results

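Glycolysis and hypoxia genes were followed in mouse pluripotent cells through 10 members: Slc2a1, Hk2, Aldoa, Pgk1, Eno1, Pkm, Ldha, Pdk1, Ankrd37 and Bnip3. They were chosen by name, with earlier results of these data known. All 10 were measured, out of 12735 genes in the epiblast-like cell table and 12730 in the embryonic stem cell table. Epiblast-like cells (EpiLCs) are the state that naive embryonic stem cells (ESCs) enter as they leave naive pluripotency. RNA-seq of both states covered DBA/2J (D2) and C57BL/6J (B6), which are inbred strains, with 3 cell lines per strain, and BXD, with 33 lines. Each BXD strain is an inbred descendant of a cross between B6 and D2, and was represented by 1 library in each state. Hybrid B6D2F1/J (F1) cells were measured as ESCs, in 3 lines. No line carried a transgene or received a drug treatment that the labels name, and the age of the donor embryos is not given. The question was how far these genes vary together between lines of 1 strain, across strains and between the states.

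Glycolysis splits glucose into pyruvate and yields ATP without oxygen. Rapidly dividing pluripotent cells are known for a high glycolytic rate, which changes as cells leave the naive state. When oxygen is short, hypoxia-inducible factor (HIF) is no longer hydroxylated and destroyed, and it binds short DNA elements near its targets. Most glycolytic enzymes are HIF targets, together with genes that divert pyruvate from the mitochondria or mark mitochondria for removal. Slc2a1 carries glucose into the cell, and Hk2 phosphorylates it. Aldoa splits the resulting hexose bisphosphate, Pgk1 makes the first ATP of the pathway, Eno1 makes phosphoenolpyruvate, and Pkm turns that into pyruvate. Ldha reduces pyruvate to lactate. Pdk1 is a kinase that shuts pyruvate dehydrogenase and so keeps pyruvate out of the mitochondria. Bnip3 is a mitochondrial outer membrane protein that promotes mitophagy, and Ankrd37 is an ankyrin repeat protein known as a HIF target.

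The core of the HIF-binding element, ACGTG or GCGTG, was sought on both strands in the 250 bases before 1 RefSeq start site per member, the one nearest the annotated start of the gene. Of the 10 members, 8 held it there, which is 80% against 38.6% of 32851 RefSeq promoters of the same length. Aldoa and Pkm held none at that site and 1 match at another. Of all 17 RefSeq start sites of the members, 14 had a match. ACGTG alone was present in 60% of the members' promoters and in 16.6% of all promoters. The 6 sequences given here are those of the members on which the results turn, in the sense of transcription and on GRCm38.p6. Capitals mark the core, which reads CACGT or CACGC where it lies on the opposite strand, and adjacent or overlapping matches form 1 run of capitals. Ldha and Bnip3 had the most matches, with 5 each, some of them both strands of the same palindrome.
Slc2a1 (chr4:119108495-119108744, plus strand): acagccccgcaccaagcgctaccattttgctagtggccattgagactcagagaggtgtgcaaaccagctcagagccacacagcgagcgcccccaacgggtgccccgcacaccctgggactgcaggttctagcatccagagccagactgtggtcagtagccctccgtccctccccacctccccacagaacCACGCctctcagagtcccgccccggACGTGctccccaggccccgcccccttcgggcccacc
Hk2 (chr6:82774455-82774704, minus strand): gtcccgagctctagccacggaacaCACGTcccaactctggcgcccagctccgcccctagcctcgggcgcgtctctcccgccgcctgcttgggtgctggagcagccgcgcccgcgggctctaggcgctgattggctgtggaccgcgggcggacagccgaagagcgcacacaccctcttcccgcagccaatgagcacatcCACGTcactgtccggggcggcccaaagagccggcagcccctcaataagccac
Pgk1 (chrX:106186850-106187099, plus strand): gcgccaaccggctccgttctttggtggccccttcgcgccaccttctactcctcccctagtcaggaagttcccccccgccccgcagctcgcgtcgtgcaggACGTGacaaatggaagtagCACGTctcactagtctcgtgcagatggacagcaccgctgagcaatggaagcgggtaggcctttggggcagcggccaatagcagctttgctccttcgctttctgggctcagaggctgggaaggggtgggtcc
Pdk1 (chr2:71872974-71873223, plus strand): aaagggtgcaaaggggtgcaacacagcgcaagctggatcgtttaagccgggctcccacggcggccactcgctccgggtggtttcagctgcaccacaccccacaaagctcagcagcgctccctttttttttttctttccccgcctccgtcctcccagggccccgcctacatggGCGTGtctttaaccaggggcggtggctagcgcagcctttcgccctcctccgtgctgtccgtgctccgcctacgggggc
Ankrd37 (chr8:45999851-46000100, minus strand): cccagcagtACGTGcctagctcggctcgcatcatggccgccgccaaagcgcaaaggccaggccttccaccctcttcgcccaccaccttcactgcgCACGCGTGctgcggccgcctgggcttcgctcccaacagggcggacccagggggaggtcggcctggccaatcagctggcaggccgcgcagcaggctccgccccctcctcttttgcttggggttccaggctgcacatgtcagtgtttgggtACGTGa
Bnip3 (chr7:138909507-138909756, minus strand): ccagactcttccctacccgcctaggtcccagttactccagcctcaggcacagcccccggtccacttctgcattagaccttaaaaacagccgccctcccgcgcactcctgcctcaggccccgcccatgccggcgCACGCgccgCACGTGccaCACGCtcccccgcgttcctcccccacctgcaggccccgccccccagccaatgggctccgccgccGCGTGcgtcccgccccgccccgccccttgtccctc
The pair of matches in Pgk1 lay 150 to 146 and 131 to 127 bases before the start site, and the single match in Pdk1 lay 78 to 74 bases before it. These matches describe letters in a window and not occupied sites.

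RNA levels are the authors' normalized signal per gene, and whether it was divided by gene length is not given. Levels are therefore compared between lines of the same gene, and the EpiLC and ESC tables were normalized separately. Totals ran from 949979 to 1019491 in the parental ESC libraries and from 962136 to 989576 in the parental EpiLC libraries, and from 902250 to 1115271 in BXD ESCs and 875065 to 1230020 in BXD EpiLCs. The read depth behind these values is unknown. Naive pluripotency markers summed to 119.8 to 139 in D2 EpiLCs and 79.8 to 89.8 in B6 EpiLCs, and to 3336 to 3542 in D2 ESCs and 3334 to 3563 in B6 ESCs. Fibroblast feeder markers, with 12 of 15 detected in EpiLCs and 15 of 15 in ESCs, summed to 110.1 to 181 in D2 EpiLCs and 111 to 124.1 in B6 EpiLCs, and to 1214 to 1741 in D2 ESCs and 1170 to 1463 in B6 ESCs. Primitive endoderm markers, with 6 of 10 detected in EpiLCs and 5 of 10 in ESCs, had sums that stood apart by strain. These were 80.6 to 234 in D2 and 60.9 to 78.0 in B6 EpiLCs, and 224 to 285 in D2 and 159 to 185 in B6 ESCs. In the strain test described below, 4 of the 6 were higher in D2 EpiLCs. In ESCs 2 of the 5 were higher in D2, and the other 3 did not pass. The 2 were Lama1 (mean 127 in D2 and 90.3 in B6) and Col4a1 (119 and 63.4), which made up most of the ESC sum. The sums of formative markers were also apart by strain in ESCs, at 317 to 395 in D2 and 180.5 to 227 in B6. Those of naive markers, given above, were apart in EpiLCs. There 5 of 7 naive markers were higher in D2 and 1 was lower, beside 28.5% and 29% of all genes. The part of these markers in the strain differences was not tested. In bulk RNA, fewer cells of a type and less RNA per cell cannot be told apart.

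D2 cells held less RNA of 4 members than B6 cells in each state, and no member was higher in D2 past the test. Pgk1, Slc2a1 and Pdk1 were lower in both states, with Ldha added in EpiLCs and Ankrd37 in ESCs. Among all genes tested by limma on log2(signal + 1), 29% were lower and 28.5% higher in D2 EpiLCs, and 20.3% were lower and 17.3% higher in D2 ESCs. The median difference of the 10 members was -0.17 on the log2 scale in EpiLCs, where that of all genes was 0.00, and -0.22 in ESCs, where that of all genes was -0.04. The call threshold was an adjusted p of 0.05 over all genes of a table.

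Slc2a1 stood at 337, 354 and 339 in the D2 EpiLC lines D29, D55 and DAC203, against 580.1, 522 and 545 in the B6 EpiLC lines B41, B44 and B51. In ESCs it stood at 297, 343 and 525 in the same D2 lines, against 608, 502 and 631 in the B6 lines. The strains were separate in EpiLCs, while in ESCs DAC203 lay between the B6 lines. The log2 difference was -0.68 (SE 0.07, adjusted p = 1.18e-05) in EpiLCs and -0.61 (SE 0.19, adjusted p = 0.0296) in ESCs. Hk2, the step after glucose entry, did not pass the test in either state. Its means were 227 ± 11.6 in D2 and 249 ± 39.8 in B6 EpiLCs, and 578 ± 92.3 in D2 and 640 ± 36.9 in B6 ESCs (SD, n = 3 each).

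Pgk1 showed the largest strain difference of the members in EpiLCs. It stood at 142, 115 and 127 in D29, D55 and DAC203, against 370, 381 and 307 in B41, B44 and B51. In ESCs the same D2 lines had 426, 494 and 676, against 868, 601 and 869 in the B6 lines. No D2 EpiLC line came near a B6 line, whereas in ESCs DAC203 exceeded B44. The log2 difference was -1.45 (SE 0.10, adjusted p = 2.81e-07) in EpiLCs and -0.56 (SE 0.19, adjusted p = 0.0418) in ESCs. Pgk1 lies on the X chromosome (chrX:106187100-106203699, mm10). The summed signal of 4 Y-linked genes was present in all D2 and B6 lines, at 139 to 161 in D2 and 158 to 183 in B6 EpiLCs. Of the BXD lines, BXD66 and BXD95 had a sum under 1 as EpiLCs and no line did as ESCs.

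The other enzymes of the trunk of the pathway moved less. Aldoa averaged 1172 ± 129.6 in D2 EpiLCs and 1154 ± 33.2 in B6 EpiLCs, and 1899 ± 419 in D2 ESCs and 2053 ± 267 in B6 ESCs (SD, n = 3 each). Pkm averaged 3131 ± 79.3 in D2 and 3170 ± 68.3 in B6 EpiLCs, and 3142 ± 396 in D2 and 3733 ± 236 in B6 ESCs. Neither gene passed the test in either state. Eno1 did not pass it either, and its D2 lines were far apart. D29, D55 and DAC203 had 2097, 3666 and 3953 in EpiLCs and 1695, 2866 and 4035 in ESCs. The B6 lines lay between 3275 and 3465 in EpiLCs and between 2409 and 2999 in ESCs. D29 was thus the lowest D2 line for Eno1 in both states, below every B6 line.

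At the branch point after pyruvate, Ldha averaged 1042 ± 92.4 in D2 EpiLCs and 1209 ± 63.3 in B6 EpiLCs (SD, n = 3 each). The groups overlapped, and the log2 difference of -0.22 (SE 0.08) had an adjusted p of 0.0457, which rose to between 0.141 and 0.179 when DAC203, D55 or B41 was left out. In ESCs Ldha averaged 1396 ± 328 in D2 and 1559 ± 180 in B6 and did not pass the test. Pdk1 stood at 241, 227 and 203 in the D2 EpiLC lines D29, D55 and DAC203, against 286, 311 and 271 in the B6 lines B41, B44 and B51. In ESCs it stood at 47.1, 40.3 and 51.5 in the D2 lines, against 80.6, 80.6 and 104.6 in the B6 lines. The strains did not overlap in either state. The log2 difference was -0.37 (SE 0.09, adjusted p = 0.00297) in EpiLCs and -0.92 (SE 0.13, adjusted p = 0.000595) in ESCs, and Pdk1 passed the test without any 1 of the parental lines in both states.

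The hypoxia markers differed from each other. Ankrd37, a low transcript, stood at 3.38, 2.85 and 3.88 in D29, D55 and DAC203 EpiLCs, against 2.12, 2.78 and 2.45 in B41, B44 and B51. In ESCs it stood at 4.41, 6.07 and 8.15 in the D2 lines, against 11.4, 9.44 and 11.5 in the B6 lines. The D2 lines were thus above every B6 line in EpiLCs and below every B6 line in ESCs. The log2 difference was 0.34 (SE 0.14, adjusted p = 0.0503) in EpiLCs, just short of a call, and -0.74 (SE 0.19, adjusted p = 0.0144) in ESCs. Bnip3 averaged 50.7 ± 8.54 in D2 and 65.3 ± 11.4 in B6 EpiLCs, and 120.1 ± 39.0 in D2 and 127 ± 30.9 in B6 ESCs (SD, n = 3 each). It passed the test in neither state (adjusted p = 0.0520 in EpiLCs and 0.762 in ESCs).

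The ESC count rested on single lines. It was 8 of 10 without DAC203, when Aldoa, Ldha, Pkm and Hk2 joined the 4 members, 2 without D29 or D55, and 1, namely Pdk1, without B41 or B51. The EpiLC count, with calls in either direction, ran from 3 to 6, and Ankrd37 was called higher in D2 without B44 or D55. Shares of all genes called without each line are not given here, so these counts describe the members alone.

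**Figure D1:**
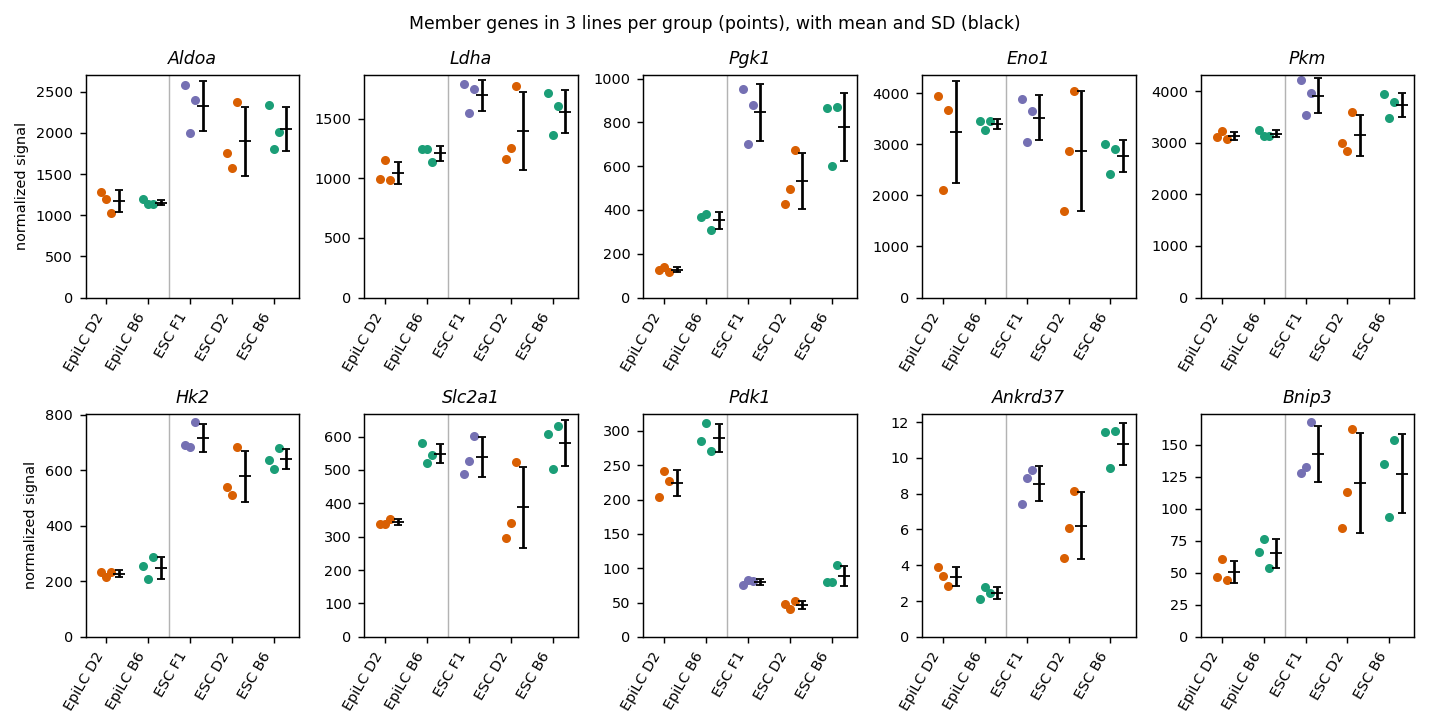
Normalized signal (vertical axes, starting at 0) of each member in 3 lines per group, with EpiLC groups left and ESC groups right of the grey line. Points are lines and black marks give the mean and SD; D2 Pgk1 lies at 115 to 142 in EpiLCs below all B6 lines, and the D2 ESC points spread more widely than the B6 ones for several members. EpiLC and ESC values come from separately normalized tables, and F1 values from the ESC table that holds the F1.

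The strain difference itself changed between states for 3 of 10 members, where 36% of all genes tested passed the same interaction test. For Pgk1 the D2 minus B6 difference in EpiLCs was 0.89 lower on the log2 scale than that in ESCs (-0.89, SE 0.25, adjusted p = 0.0153). For Pdk1 it was 0.55 higher (SE 0.16, adjusted p = 0.0142), and for Ankrd37 1.08 higher (SE 0.24, adjusted p = 0.00290). The share of members that passed was thus below that of all genes. Without D55 only Ankrd37 passed. Pgk1 fell short without B44 (adjusted p = 0.0564), and Pdk1 fell short without B51 (0.0904) or D29 (0.0547).

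F1 ESCs stood above the mean of the parents for every member, but no difference passed the test. The median log2 difference from the mid-parent was 0.23 for the members and 0.02 for all genes. None of the 10 passed limma's test, beside 3.29% of all genes. Pdk1 stood at 75.5, 83.3 and 80.6 in F116, F117 and F124, with means of 46.4 ± 5.64 in D2 and 88.8 ± 13.9 in B6 in the same table (SD, n = 3 each). Its difference of 0.32 (SE 0.10) had an adjusted p of 0.117. Without DAC203, 3 members passed: Ldha, Hk2 and Pdk1, with differences of 0.30, 0.30 and 0.36. The share of all genes that passed without DAC203 is not given here.

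Between the ESC lines of D2, and between those of B6, the members varied together. DAC203 had the highest level of 10 of 10 members among the D2 ESC lines, against 38.7% of all genes. B44 had the lowest level of 9 of 10 members among the B6 ESC lines, against 32.4% of all genes. The F1 ESC lines were mixed. F117 was lowest for 6 of 10, against 36.2% of all genes, while F116 was highest for 5 and lowest for 4, above the F1 mean for Aldoa, Ldha, Pgk1, Eno1 and Pkm and below it for the other 5. DAC203 lay above the D2 mean by between 0.16 (Pdk1) and 0.58 (Eno1) on the log2 scale, and B44 lay below the B6 mean by up to 0.41, the value of Bnip3.

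After each strain's mean was taken out, all 45 pairs of members correlated positively over the 9 ESC lines of D2, B6 and F1, with r from 0.15 to 0.99 and a median of 0.77. In a limma regression of every gene on each member, with strain as a factor, 19 of the 90 ordered pairs passed, all with a positive slope. Pooled over the 10 regressions, 5.61% of genes passed. Most of the calls needed DAC203: 2 pairs passed without it, 12 without B44, 10 without F117, 11 without F124 and 31 without F116. The share of all genes was not counted for the fits with a line left out.

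In EpiLCs no line was highest for more than 5 members or lowest for more than 6. In D2, DAC203 was highest for 4, against 31.6% of all genes, and D29 for 5, against 41.7%. D55 was lowest for 6, against 30.7% of all genes. In B6, B44 was highest for 5, against 36.6% of all genes, and B51 lowest for 5, against 25.9%. Over the 6 EpiLC lines of D2 and B6, 22 of 45 pairs were positive, with r from -0.88 to 0.95 and a median of -0.01. Of the 90 ordered pairs 1 passed, with a negative slope, beside 0.569% of all genes. The members' median SD between lines was 0.14 in D2 and 0.09 in B6 EpiLCs, where all genes had 0.09 and 0.12, and 0.33 in D2 and 0.17 in B6 ESCs, where all genes had 0.16 and 0.10 (log2 scale). All 10 members spread more than the median gene over the D2 ESC lines.

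**Figure D2:**
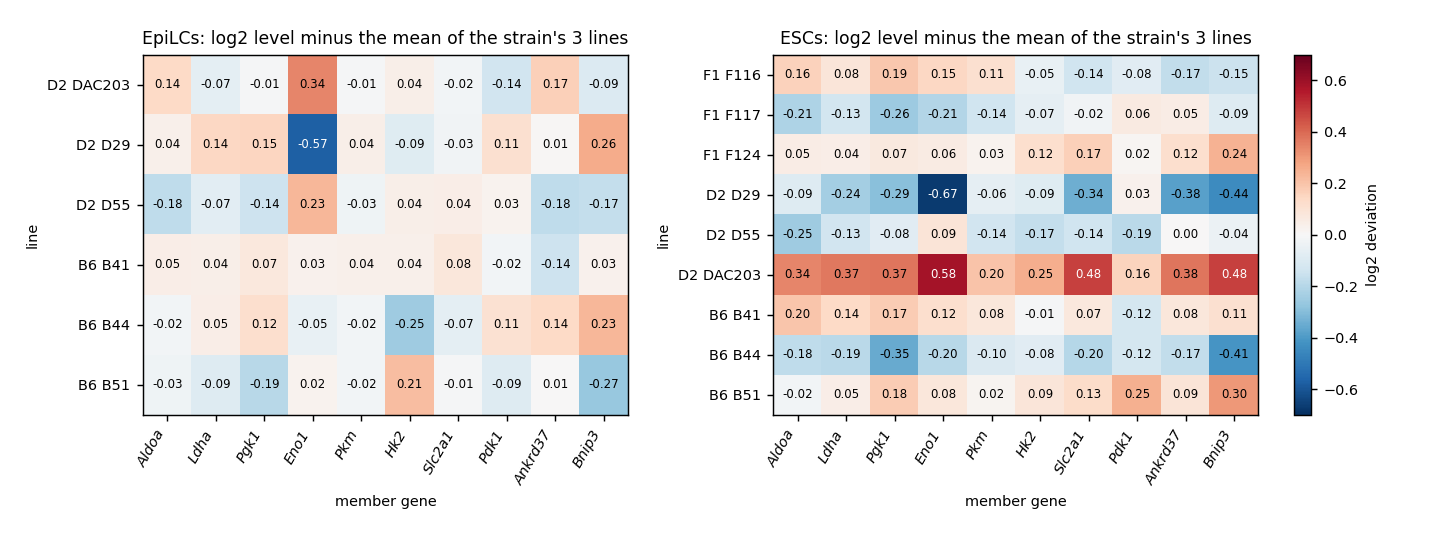
Log2 level of each member (columns) in each line (rows) minus the mean of that strain's 3 lines, with the value printed in each cell, for EpiLCs left and ESCs right. In ESCs the row of DAC203 is positive for all 10 members, at 0.16 to 0.58, and that of B44 negative for all 10; EpiLC rows are mixed.

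For Eno1, D29 lay far below the other D2 lines in both states. It was 0.57 below the D2 mean for Eno1 in EpiLCs and 0.67 below it in ESCs, while its other 9 members lay between -0.09 and 0.26 in EpiLCs and between -0.44 and 0.03 in ESCs. In ESCs the D2 lines stood in the same order for Eno1 as for Ldha, Pgk1, Slc2a1, Ankrd37 and Bnip3, with D29 lowest and DAC203 highest, whereas D55 was lowest for Aldoa, Pkm, Hk2 and Pdk1. The ATAC signal at the Eno1 promoter, a measure of open chromatin, was also lowest in D29 of the D2 lines, at 32.2 against 53.6 and 49.0 for D55 and DAC203 in EpiLCs and 15.3 against 25.02 and 23.8 in ESCs. These values rest on 818, 1226 and 1362 reads in EpiLCs and 314, 564 and 544 in ESCs. D29 was chosen for mention after its values were seen.

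Across BXD ESC lines the members formed 1 tightly linked group. All 45 pairs correlated positively over the 33 lines, with r from 0.42 (Pdk1 and Ankrd37) to 0.92 (Aldoa and Pkm) and a median of 0.75, and with rho from 0.41 to 0.90 and a median of 0.72. When each gene was regressed on each member by limma, 89 of the 90 ordered pairs passed with a positive slope and 0 with a negative one. Pooled over the 10 regressions, 14.3% of genes passed with a positive slope and 14.6% with a negative one. Because the members were chosen with earlier results of these data known, this contrast is a description and not an independent test. The pair that fell short was Pdk1 regressed on Ankrd37 (adjusted p = 0.0659).

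Levels ran over a wide range between BXD ESC lines. Bnip3 had its lowest value of 30.7 in BXD90, a median of 58.3 and its highest value of 241 in BXD65. Pdk1 ran from 19.5 in BXD74 over a median of 47.6 to 118 in BXD45, and Slc2a1 from 171 in BXD90 over 395 to 681 in BXD65. BXD65 had the highest level of 7 members: Aldoa, Pgk1, Eno1, Pkm, Hk2, Slc2a1 and Bnip3. In all, 8 lines were above the BXD mean for all 10 members, led by BXD65, BXD124 and BXD43, and 6 lines for none, with BXD90 and BXD85 the lowest by mean z score.

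Aldoa had the highest mean r with the other 9 members, 0.80, followed by Eno1 at 0.78 and Ldha and Pkm at 0.77. Hk2 and Slc2a1 had 0.73, Pgk1 0.72, Pdk1 and Bnip3 0.69, and Ankrd37 the lowest, 0.61. For Aldoa and Pkm r was 0.92 and rho 0.87, with a permutation p of 1e-05 for each, the smallest that 100000 shuffles can give, and an adjusted p of 2.62e-10 over all genes. For Pdk1 and Ankrd37 r was 0.42 (permutation p = 0.016) and rho 0.49 (p = 0.0046). In all, 45 pairs were computed in each state. Without the 2 lines farthest from the median of the member on the x axis, all 45 pairs stayed positive with a median r of 0.70.

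The ESC pairs were also taken within runs of library codes and with the largest axis of the data as a covariate. The descriptions of the EpiLC ATAC samples carry code numbers in 3 runs, of 7, 10 and 16 lines, whose meaning the labels do not give. The ESC RNA samples carry no code, so batches of the ESC RNA libraries were not tested. Within the lines of each run, 45, 43 and 45 of the 45 ESC pairs were positive, with medians of 0.71, 0.57 and 0.82. The first principal component of all genes took 20.9% of the ESC variance and correlated with the members' mean z score at 0.70 in size. With it as a covariate the median partial r was 0.64, all 45 pairs were positive and 74 of 90 ordered pairs passed. The share of all genes in that fit was not counted. The lowest partial r was 0.32, for Hk2 and Bnip3, which no longer passed (adjusted p = 0.211 for Bnip3 on Hk2).

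Feeder fibroblast markers moved the other way. All 15 feeder markers correlated negatively with the members' mean z score over the BXD ESC lines, where 48.6% of all genes were positive. Their r lay between -0.50 and -0.08, and their summed signal ran from 551 to 6454. Their part in the result was not tested. None of the 15 was below a signal of 0.5 in all of these libraries.

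Other genes of the pathway followed the members in ESCs. Of 14 other glycolytic enzymes, 12 correlated positively with the members' mean z score, with a median r of 0.79, and of 22 other hypoxia-induced genes 18 did, with a median of 0.56. For all genes the median was -0.01, with 48.6% positive. The 8 genes most like the members over the 33 lines were Pfkl (0.97), a phosphofructokinase, Ndufa4l2 (0.95), Tpi1 (0.93), a triosephosphate isomerase, Aldoc (0.93), G2e3 (0.92), Hacl1 (0.92), Egln3 (0.91), a HIF hydroxylase, and Pgam1 (0.91). The 11 genes of pyruvate entry into mitochondria had a median r of -0.18, with 3 positive. These correlations share the libraries and are given as a description.

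**Figure D3:**
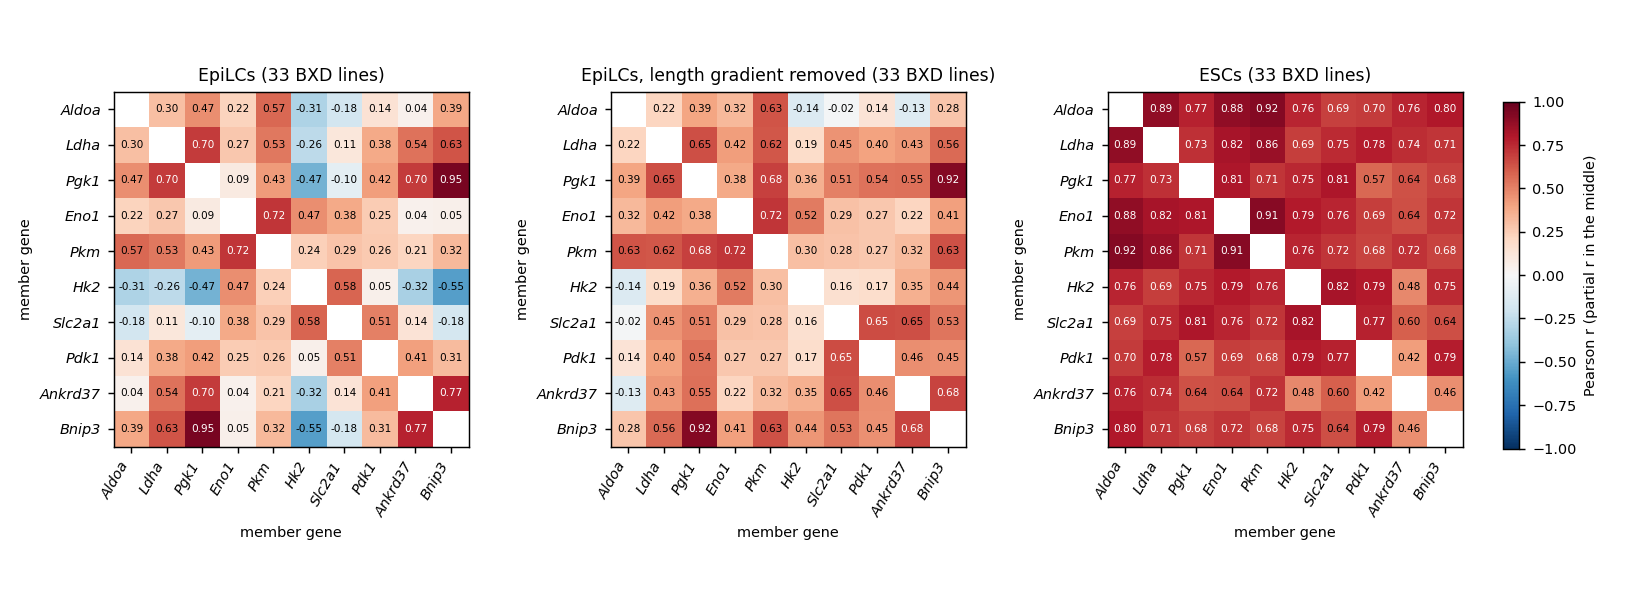
Pearson r between members over 33 BXD lines in EpiLCs (left), in EpiLCs with the transcript-length gradient described in the text as a covariate (middle, partial r), and in ESCs (right), with the value in each cell. The ESC panel is positive throughout, from 0.42 to 0.92; the left panel holds negative values to -0.55, mostly in the Hk2 row, and the middle panel's lowest value is -0.14.

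Across BXD EpiLC lines the members were less tightly linked than in ESCs, and some pairs were opposed. Of the 45 pairs 37 were positive and 8 negative, with r from -0.55 to 0.95 and a median of 0.29, and with rho from -0.63 to 0.88 and a median of 0.27. Of the 90 ordered pairs 25 passed with a positive slope and 4 with a negative one. Pooled over the 10 regressions, 16.4% of genes passed with a positive slope and 17.4% with a negative one. Set against all genes, the member pairs thus passed less often with a negative slope and more often with a positive one. Within the 3 runs of ATAC library codes 35, 30 and 35 pairs were positive, with medians of 0.26, 0.13 and 0.36.

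Pgk1 and Bnip3 were the most tightly linked pair in EpiLCs, and Hk2 and Bnip3 the most opposed. For Pgk1 and Bnip3 r was 0.95 and rho 0.88 (permutation p = 1e-05 for each), with an adjusted p of 4.67e-15 over all genes. For Hk2 and Bnip3 r was -0.55 (permutation p = 0.0011) and rho -0.63 (p = 0.00015), with an adjusted p of 0.00103. In ESCs the same pair had an r of 0.75. Bnip3 ran from 15.7 in BXD84 over a median of 55.9 to 295 in BXD68, while Hk2 ran from 59.1 in BXD71 over a median of 165.5 to 281 in BXD64. Slc2a1 ran from 173 to 1382, over a median of 407.5.

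Bnip3 was divided into a higher and a lower range in EpiLCs, and its correlations were also taken within each. The cut lay at the widest gap, as a ratio, between neighbouring Bnip3 values, with the lowest lines set aside. It was thus taken from the same values, and it narrows the range of Bnip3 in each group. In BXD45, BXD49, BXD55, BXD65, BXD68 and BXD71 it lay between 172 and 295, and in the other 27 lines between 15.7 and 112. Over the 27 lines r was 0.86 for Pgk1 and Bnip3 and -0.40 for Hk2 and Bnip3. Over the 6 lines these were 0.66 and 0.71, on few points. The total signal of the 6 lines was 1072080 to 1230020, against 875065 to 1116418 in the other 27.

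A gradient along transcript length ran through the EpiLC libraries and moved with these correlations. For each library the log2 deviation of every gene from its mean was regressed on the log2 length of its longest transcript, with the members left out, and the slope was called the length gradient. It ran from -0.35 to 0.30 over the BXD EpiLC lines, and was 0.13 to 0.17 in D2 and 0.16 to 0.28 in B6 EpiLCs. In the 6 lines with high Bnip3 and high totals it was -0.348 to -0.176, against -0.295 to 0.296 in the other 27 BXD EpiLC lines, and the part of the totals in the correlations was not tested. Over the BXD ESC lines it ran from -0.12 to 0.04, and it was 0.07 to 0.13 in D2 and 0.07 in B6 ESCs. In EpiLCs the first principal component, with 42% of the variance, correlated with the gradient at -0.996, the sign of a component being arbitrary.

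In EpiLCs the members with the strongest positive correlation with the gradient had long transcripts, and those with the strongest negative one had short transcripts. Hk2, with a longest transcript of 5513 bases, had an r of 0.88 with it, and Slc2a1 (3260 bases) 0.59. Bnip3 (1756 bases) had -0.77, Pgk1 (1825 bases) -0.68 and Ankrd37 (927 bases) -0.53. Pdk1 (5185 bases) was an exception at -0.03. In ESCs the members' r with the gradient lay between -0.13 and 0.34. The gradient was defined after the data had been seen, and it entered the fits only as a covariate.

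**Figure D4:**
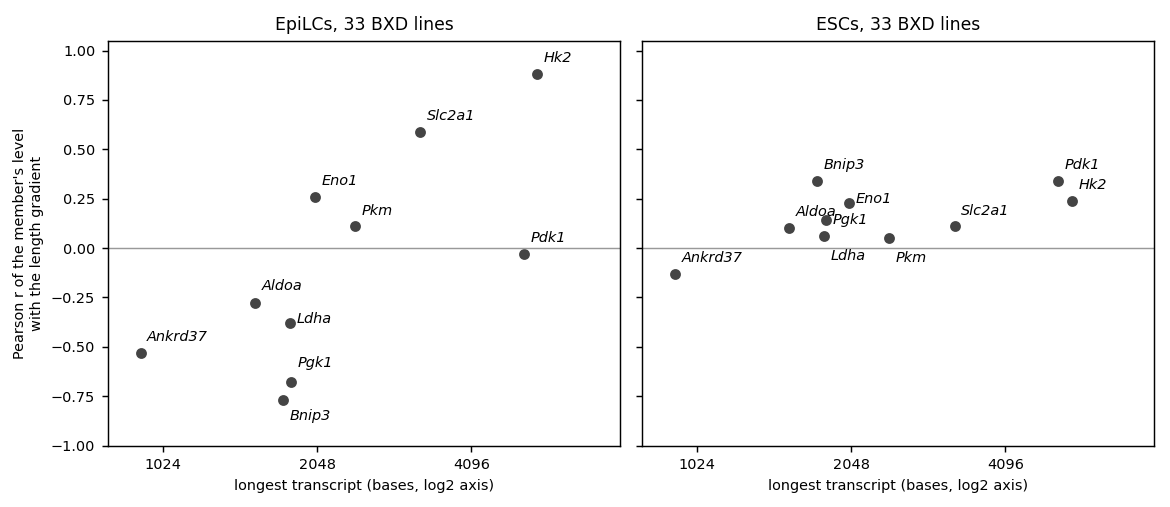
Pearson r of each member's level with the transcript-length gradient over 33 BXD lines (vertical axis) against the length of its longest transcript (horizontal log2 axis, bases), EpiLCs left and ESCs right. In EpiLCs the points climb from -0.77 for Bnip3 to 0.88 for Hk2, with Pdk1 near 0; in ESCs all lie between -0.13 and 0.34.

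With the gradient as a covariate, most of the opposed EpiLC pairs turned positive. In EpiLCs 42 of 45 pairs were then positive, with a median partial r of 0.41, and 40 of 90 ordered pairs passed, all with a positive slope. For Hk2 and Bnip3 the partial r was 0.44 and for Pgk1 and Bnip3 0.92. The 3 negative pairs were those of Aldoa with Hk2 (-0.14), Ankrd37 (-0.13) and Slc2a1 (-0.02). In ESCs the median was 0.74 and 90 of 90 ordered pairs passed. The share of all genes that passed with the gradient as a covariate was not counted, so these counts have no background beside them.

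**Figure D5:**
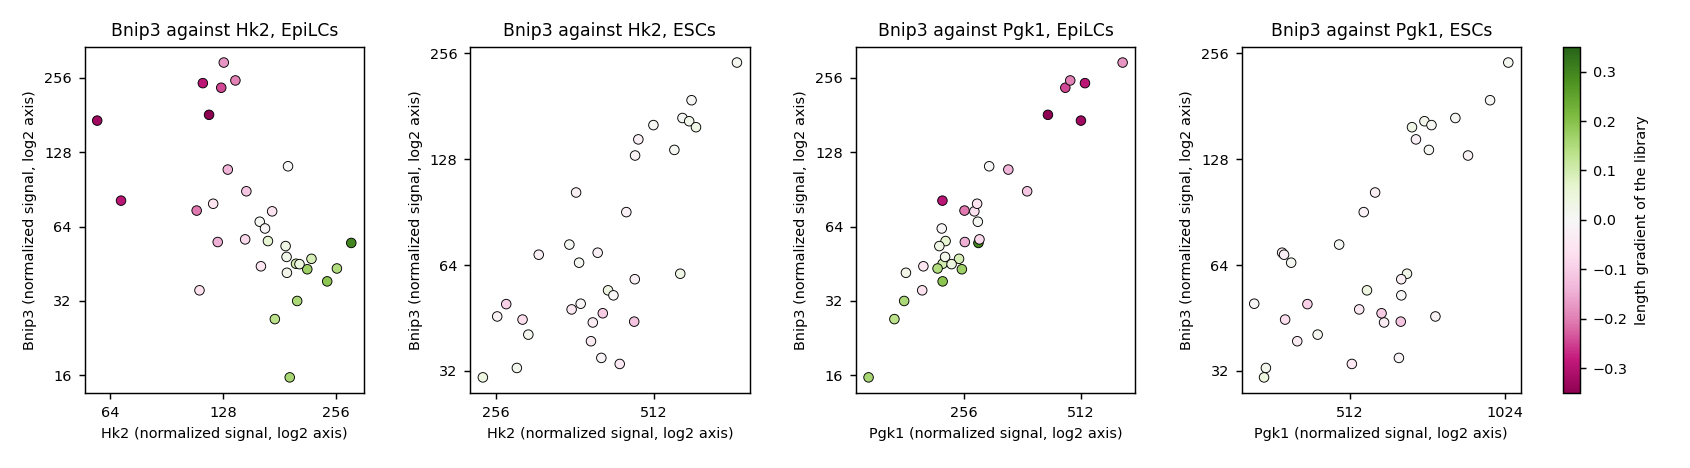
Bnip3 against Hk2 (left pair of panels) and against Pgk1 (right pair) in 33 BXD lines, EpiLCs left of ESCs in each pair, as normalized signal on log2 axes and coloured by the library's length gradient. In EpiLCs Bnip3 falls as Hk2 climbs (r = -0.55) with strongly negative gradients at the upper left; Bnip3 climbs with Pgk1 in both states (r = 0.95 in EpiLCs and 0.68 in ESCs).

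BXD lines also left the range of the parental lines. In EpiLCs 31 of 33 BXD lines lay below all 6 parental lines for Pkm and 28 for Hk2, counts that 0.84% and 3.57% of all genes reached. In ESCs 25 lay below all 6 for Hk2 and 22 for Bnip3, counts that 6.28% and 9.58% of all genes reached. For Ankrd37 in EpiLCs 14 lay above them, as many as in 26.9% of all genes. The median gene had 7 BXD lines below the parental range in EpiLCs and 5 in ESCs. The libraries themselves stood apart in ESCs, where no BXD library reached the length gradient of any parental one. In EpiLCs most BXD libraries also lay below every parental one. There the gradient ran from -0.348 to 0.296 in BXD and from 0.128 to 0.277 in the parental libraries. Over the BXD EpiLC lines Hk2 had an r of 0.88 with the gradient and Pkm 0.11. The part of these offsets in the counts was not tested in either state.

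Slopes between members were weaker in EpiLCs than in ESCs for part of the pairs. In a limma fit on z scores with the line as a block, 29 of 90 ordered pairs differed between the states, all with a lower slope in EpiLCs, beside 27.7% of all genes in either direction. With the length gradient removed from both states, 10 differed, all lower in EpiLCs, beside 19.8% of all genes. The share of members thus lay near that of all genes before removal and below it afterwards. The pairs of Aldoa with Hk2 and with Ankrd37 were among those that differed in both fits. For Aldoa and Hk2 r was -0.31 in EpiLCs and 0.76 in ESCs (adjusted p = 0.00310 for Hk2 on Aldoa), and -0.14 and 0.76 with the gradient removed (adjusted p = 0.00678). For Aldoa and Ankrd37 r was 0.04 in EpiLCs and 0.76 in ESCs (adjusted p = 0.0344 for Ankrd37 on Aldoa), and -0.13 and 0.78 with it removed (adjusted p = 0.0103). For Hk2 on Bnip3 the adjusted p was 2.47e-08 without removal and 0.265 with it.

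A line's level in EpiLCs followed its level in ESCs for 3 of 10 members, where 12.3% of all genes passed with a positive slope. The members were Eno1 (r = 0.59, rho = 0.60, adjusted p = 0.00505), Ldha (r = 0.56, rho = 0.57, adjusted p = 0.00857) and Ankrd37 (r = 0.52, rho = 0.52, adjusted p = 0.0192). Bnip3 (r = -0.05) and Aldoa (r = -0.04) were among the 7 that did not pass. Without the 2 lines farthest from the median ESC level, r was 0.56, 0.49 and 0.46 for these 3, and Eno1 alone passed. The median r was 0.29 for the members and 0.12 for all genes.

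A near-identical copy touches Eno1. Eno1b had a signal of 303 to 545 in 13 BXD EpiLC lines and at most 2.19 in the other 20, and 54.1 to 272 and at most 2.11 in the same lines as ESCs. In D2 and B6 it was at most 1.45. Reads shared between copies can be split by counting, so Eno1 levels in these lines are uncertain. Eno1 itself ran from 1586 to 2339 in these 13 lines and from 1742 to 3539 in the other 20 as EpiLCs. As ESCs it ran from 1607 to 2758 and from 1807 to 4321. Summing both left 29 of 90 ordered EpiLC pairs and 89 of 90 ordered ESC pairs past the test. The link of Eno1 between the states was not recomputed on the sum, so the part of the copy in it was not tested.

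In EpiLCs, other hypoxia and glycolysis genes followed the members more loosely. Of 13 other glycolytic enzymes 10 correlated positively with the members' mean z score, with a median r of 0.25, and of 21 other hypoxia-induced genes 15 did, with a median of 0.40. For all genes the median was 0.0, with 50.1% positive. The naive pluripotency markers had a median r of -0.46, with 0 of 7 positive, and their summed signal ran from 63.5 to 331 over these lines. Their part in the result was not tested. The 8 genes most like the members were Arl14ep (0.84), Lck (0.84), Tpi1 (0.83), Ciart, Ddit4, Mthfd2, Tmem206 and Fgfbp3, with r down to 0.76.

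Between the parental strains, other genes of the pathway differed in both directions, as did genes in general. Among all genes tested, 28.5% rose and 29% fell in D2 EpiLCs, and 17.3% rose and 20.3% fell in D2 ESCs. These shares stand beside the counts of each list that follows. Of 13 other glycolytic enzymes 5 rose and 5 fell in D2 EpiLCs, and of 14 in ESCs 2 rose and 3 fell. In EpiLCs Pfkm, a phosphofructokinase, fell by 1.32 (SE 0.11) on the log2 scale, and Eno3, a muscle enolase, by 0.73 (SE 0.11), while Pgam2 rose by 0.84 (SE 0.16) and Hk1 by 0.57 (SE 0.11). In ESCs Ldhb, the other lactate dehydrogenase chain, fell by 1.02 (SE 0.27), Pfkm by 0.66 (SE 0.16) and Gpi1 by 0.61 (SE 0.16), and Eno2 rose by 1.11 (SE 0.26).

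Of 21 other hypoxia-induced genes 3 rose and 7 fell in D2 EpiLCs, and of 22 in ESCs 2 rose and 5 fell. Stc2, a secreted glycoprotein, fell by 2.01 (SE 0.09) in EpiLCs and by 1.25 (SE 0.14) in ESCs. In EpiLCs Vegfa, the vascular growth factor, fell by 0.96 (SE 0.12) and Ndrg1 rose by 1.51 (SE 0.12). Ak4, an adenylate kinase of mitochondria, fell by 0.75 (SE 0.08) in EpiLCs, and it rose by 0.72 (SE 0.11) in ESCs, a value chosen for mention after it was seen. In ESCs Ddit4, an inhibitor of mTOR signalling, fell by 1.22 (SE 0.20), Adm, a vasodilator peptide, by 0.84 (SE 0.26) and Fam162a by 0.75 (SE 0.21).

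Of the 10 genes of the HIF pathway, 2 rose and 4 fell in D2 EpiLCs and 2 rose and 2 fell in ESCs. Epas1, a HIF alpha subunit, averaged 77.0 ± 12.9 in D2 and 8.05 ± 1.67 in B6 EpiLCs, and 80.8 ± 6.62 in D2 and 67.4 ± 1.75 in B6 ESCs (SD, n = 3 each). It rose by 3.11 (SE 0.15, adjusted p = 5.86e-08) in D2 EpiLCs and by 0.26 (SE 0.08, adjusted p = 0.0369) in D2 ESCs. Egln1, a HIF hydroxylase, fell by 0.69 (SE 0.09) and Vhl, which marks HIF for destruction, by 0.59 (SE 0.09) in D2 EpiLCs, while Egln2, another such hydroxylase, rose by 0.47 (SE 0.08). In D2 ESCs Arnt2, a HIF partner subunit, rose by 1.401 (SE 0.13), Hif3a fell by 0.73 (SE 0.22) and Vhl by 0.35 (SE 0.12). Of 11 genes of pyruvate entry into mitochondria 4 rose and 4 fell in D2 EpiLCs, and 1 rose and 1 fell in D2 ESCs. Mpc1, a subunit of the mitochondrial pyruvate carrier, rose by 0.84 (SE 0.13) in EpiLCs and Pdk4, a sister kinase of Pdk1, by 0.82 (SE 0.14). Pdhb, a pyruvate dehydrogenase subunit, rose by 0.74 (SE 0.09) in EpiLCs and by 0.35 (SE 0.07) in ESCs. Pdk3, another sister of Pdk1, fell by 0.68 (SE 0.08) in EpiLCs and by 0.51 (SE 0.08) in ESCs.

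Chromatin at the members' promoters was measured by ATAC-seq in the same strains, with 16277662 to 24346475 reads in regions per library. Regions within 1 kb of a start site were compared on log2(signal + 0.1) by limma. In EpiLCs 7 of 10 members' promoters were less open in D2, beside 60% of all promoter regions, and the median log2 difference was -0.23 for the members and -0.19 for all promoters. In ESCs 1 promoter, that of Ankrd37, was more open in D2, beside 29.8% of all promoter regions, and the medians were 0.11 and 0.09. The members' share was thus near that of promoters in general in EpiLCs and below it in ESCs.

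Promoter signal and RNA did not run in parallel for every member. At Pgk1 the ATAC signal was 26.6, 25.9 and 24.02 in D29, D55 and DAC203 EpiLCs, against 28.5, 29.7 and 31.3 in B41, B44 and B51. In ESCs it was 24.8, 22.9 and 23.4 in the D2 lines, against 21.3, 22.4 and 20.4 in the B6 lines. The strains did not overlap in either state and stood in opposite order. The log2 difference was -0.22 (SE 0.06, adjusted p = 0.000569) in EpiLCs and 0.15 (SE 0.07, adjusted p = 0.0738) in ESCs. The median of all promoters had the same sign in each state, at -0.19 in EpiLCs and 0.09 in ESCs, so this order is not particular to Pgk1. At Ankrd37, whose RNA averaged 3.37 ± 0.52 in D2 and 2.45 ± 0.33 in B6 EpiLCs (SD, n = 3 each), the promoter signal fell by 0.30 (SE 0.06, adjusted p = 5.38e-05) in D2 EpiLCs. In ESCs, where its RNA was lower in D2, the promoter signal rose by 0.18 (SE 0.07, adjusted p = 0.0347). At Pdk1 the promoter signal passed the test in neither state, with log2 differences of -0.05 (SE 0.06) in EpiLCs and -0.04 (SE 0.07) in ESCs, although its RNA was lower in D2 in both.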

How the data were processed

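RNA levels came from 3 tables of normalized signal per gene (ESC, EpiLC, and ESC with the F1) that the authors deposited, with totals per library of the same order and values that are not whole. Open chromatin came from 2 tables of ATAC signal per region, deposited after division by a factor per library. In these, 100% of values were whole multiples of 1 step within 0.01, so reads were recovered. The submitters' processing notes list HISAT2 2.0.5 and Bowtie 1.0.0, MACS 1.4.2, mm10 as the build and Cell Ranger, without their roles. The counting tool, annotation and strand setting were not given in the sources used here. Every column was matched to a sample through its labels, and 0 columns were left without one. RNA came from separate lines, per the labels' titles; whether these came from separate embryos is not stated, so p-values measure the spread between these lines.

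Members and lists were chosen with earlier results of these data known. Symbols were paired with gene identifiers through the gene list of the single-cell data. RNA was tested with limma 3.58.1 (R 4.3.3, trend and robust) on log2(signal + 1), for genes with a mean of at least 0.5, with Benjamini-Hochberg adjustment over all genes. Fold changes on this scale understate those of low genes. Across the 33 BXD lines every gene was regressed on each member, and r and rho have two-sided permutation p-values from 100000 shuffles. Slopes were compared between states on z scores with the line as a block (statmod 1.5.0). ATAC regions were tested with limma on log2(signal + 0.1), and with edgeR 4.0.16 on recovered reads as an alternative. RefSeq promoters (GRCm38.p6) supplied sequences. Tests were checked on simulated data.

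All members are named. Of each other list, at most 4 genes with the largest differences past the test are named, and the 8 genes most like the members. Exceptions are marked where they occur. Replicate numbers did not pair the strains: deviations of same-numbered lines correlated at -0.39 to 0.01. Alternatives were other pseudocounts, filters and scalings, a fit without trend, the replicate block, covariates, and each line left out in turn.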

Additional observations from a re-analysis of the deposited data

Results flagged for a closer look

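The strain difference of 3 members was itself different between the states by limma's interaction test, which is 3 of 10 where 36% of all genes passed. Without D55 only Ankrd37 passed. The D2 minus B6 difference in EpiLCs minus that in ESCs was -0.89 for Pgk1, 0.55 for Pdk1 and 1.08 for Ankrd37 on the log2 scale. Pgk1 RNA averaged 128 ± 13.1 in D2 and 352.5 ± 39.9 in B6 EpiLCs and 532 ± 129 in D2 and 779.5 ± 154 in B6 ESCs (SD, n = 3 each). Pdk1 was lower in D2 in both states, while Ankrd37 passed the test as lower in D2 in ESCs and did not pass it in EpiLCs.

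Across BXD lines, 29 of 90 ordered pairs of members had a different slope in EpiLCs than in ESCs, beside 27.7% of all genes. The difference in slope, in SD units, was -1.07 for Hk2 on Aldoa and -0.70 for Ankrd37 on Aldoa. Both pairs still differed once the transcript-length gradient was taken out of both states, when 10 of the 90 did, beside 19.8% of all genes.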

How the results depend on the processing

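The count of 4 members lower in D2 ESCs was 2 without limma's trend and robust settings, 2 with the replicate block and 2 with the length gradient as a covariate, and ran from 1 to 8 with each line left out. The 4 in EpiLCs ran from 3 to 6 over all alternatives run, with calls in either direction. The 3 interaction calls ran from 1 to 4 and the 0 calls in F1 from 0 to 3 with each line left out. The within-strain calls ran from 2 to 31 in ESCs and from 0 to 1 in EpiLCs. Over BXD ESC lines the 89 calls ran from 74 to 90. In EpiLCs the 29 calls fell to 18 without the 2 farthest lines, and were 40 with the length gradient and 42 with the first principal component as a covariate. Shares of all genes are not given for these alternatives, so a change in a count describes the members alone.

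Of the EpiLC pairs called with the first principal component as a covariate, without it or both, 4 changed sign. Their partial r was 0.39 for Pgk1 and Hk2, 0.49 for Pgk1 and Slc2a1, 0.52 for Hk2 and Bnip3 and 0.53 for Slc2a1 and Bnip3. With the length gradient these were 0.36, 0.51, 0.44 and 0.53. Hk2 and Bnip3 alone passed limma's test both without the component and with it (adjusted p = 0.00103 and 0.0286 for Bnip3 on Hk2). Pgk1 and Hk2 passed only without the component. Pgk1 and Slc2a1, and Slc2a1 and Bnip3, passed only with it. The sign also changed for Ldha and Hk2 (0.21), Hk2 and Ankrd37 (0.39) and Aldoa and Ankrd37 (-0.13), which were called neither with the component nor without it. The 29 slope differences were 10 with the gradient and 6 with the component removed. The 3 links between states were 1 without the 2 farthest lines. The 1 ESC promoter call was 4 with edgeR and 0 with the replicate block, and ran from 0 to 3 with each line left out. The cause of these shifts was not tested. Replicate numbers did not pair the samples, and the block left 3 members in EpiLC RNA and 7 EpiLC promoters.

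The depth of the RNA libraries is unknown, 3 lines per strain limit the parental tests, and each BXD strain had 1 library per state.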
